A study of Arabidopsis thaliana with 4 samples.

Results

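The genes described here are the serine carboxypeptidase-like genes of Arabidopsis thaliana, the plant relatives of the serine carboxypeptidases. They were taken as the genes whose symbol in the gene table is SCPL, in upper or lower case, followed by a number. Of 49 such symbols, 10 had a probe that lists no other gene and carries a value on all 4 arrays, out of 5386 genes measured in that way. A further 20 were listed only on probes shared with other genes, and 19 were on no probe of the annotation used here. Symbols are spelled as in the gene table, which mixes upper and lower case.

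The arrays set the flower-bearing shoot tips (inflorescences) of the mutant pistillata against those of the wild type, 1 RNA in each of 2 channels. PISTILLATA is a floral homeotic regulator, and its mutant makes neither petals nor stamens. The labels give the 2 groups as pistillata inflorescences and wild-type inflorescences, with no allele, strain or age, and do not say whether the 4 arrays hold separately grown plants, so p-values measure the spread between arrays, which may be technical. The values are the authors' log2 ratios, and no signal strengths come with them.

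The sign of each array had to be settled first. As deposited, the anther genes SWEET8, TUA1, SHT and ATA20 had median log2 ratios of 2.91, -2.77, -3.15 and 3.72 on arrays 1 to 4, which does not follow the labelled channel order. Arrays 1 and 4 were therefore multiplied by -1, so that anther genes are negative. In this likely direction a ratio is the log2 of the pistillata level over that of wild type, and were the common sign wrong, every "lower" would read "higher". None of the 10 genes took part in that choice.

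Serine carboxypeptidases remove the last amino acid of a peptide with a serine, an aspartate and a histidine in the active site. In plants the fold has also been put to another use: some members are acyltransferases that move an acyl group from a glucose ester to an acceptor. SNG1 (also SCPL8) makes the leaf sunscreen sinapoylmalate in this way, and SCPL19 (also SNG2) makes sinapoylcholine in the seed. BRS1 (also SCPL24) is known because its overexpression suppresses a weak mutant of the brassinosteroid receptor BRI1. These best studied members had no probe in the annotation used here and are not analysed here, and for most genes described below no role is stated because none is sure.

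The family did not move as a block. One gene, scpl38, was about as far below wild type as the anther genes SWEET8 and SHT, SCPL49 and scpl29 were moderately lower, SCPL43 was moderately higher, and the other 6 did not pass the test. The test was limma's moderated test over all 5386 genes, two-sided, with Benjamini-Hochberg adjustment and a threshold of 0.05. In it 4 of 10 members were called, where 8.54% of all genes were. Of the 10, 3 were lower, where 5.79% of all genes were, and 1 was higher, where 2.75% were. With the signs set by the labelled channel order instead, limma called 0 members, 0 of them at an unadjusted p under 0.05, and 0 genes in all. Relative to the signs used here, that order reverses arrays 1 and 2. Ratios that are alike on all 4 arrays then average near 0, as for scpl38 at -0.36. The lack of calls thus follows from the reversal and is no separate check of the signs. The members' median log2 ratio was -0.10 beside 0.16 for all genes, with 5 means below 0 and 5 above. Their SDs across arrays had a median of 0.30 beside 0.29 for all genes, so the members were measured with the usual spread. In whole inflorescences, fewer cells of a type and less RNA per cell cannot be told apart.

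**Figure D1:**
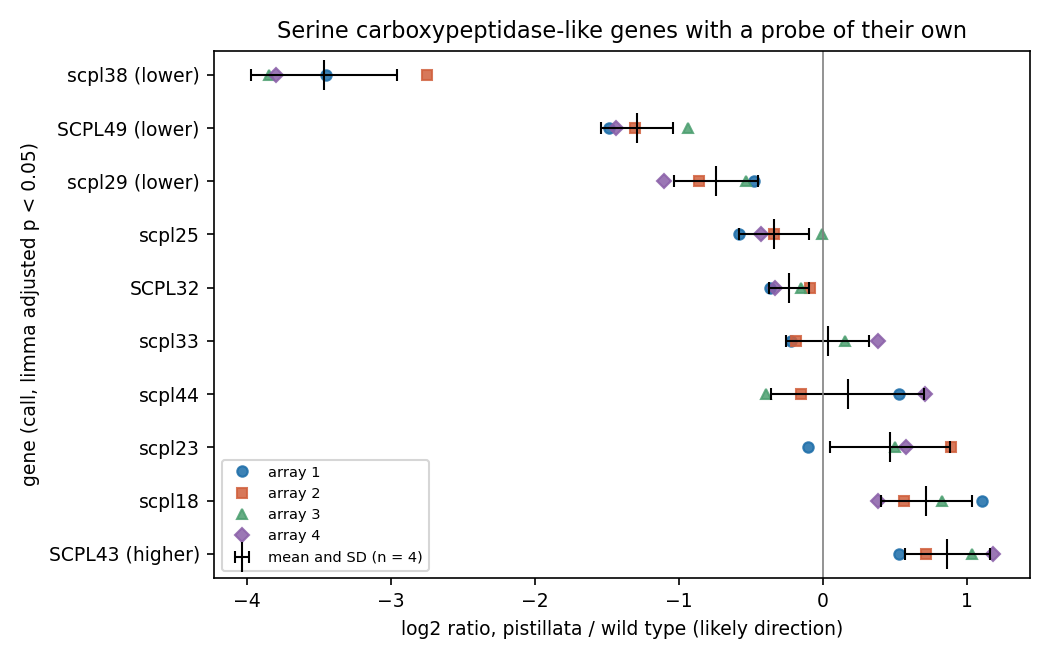
Log2 ratio of pistillata over wild type (horizontal axis, likely direction) for the 10 genes with a probe of their own, ordered by mean; symbols are the 4 arrays, the bar is the mean with its SD (n = 4), and genes past the limma threshold are marked lower or higher. The 4 values of scpl38 lie between -3.85 and -2.75, apart from those of every other member, while neighbours further down overlap.

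The gene scpl38 (AT2G05850) read -3.46, -2.75, -3.85 and -3.80 on arrays 1 to 4. All 4 arrays were low, and the highest of them lay below every value of every other member. The mean was -3.46 ± 0.51 (SD, n = 4), an 11.0-fold lower level in pistillata (95% interval of the log2 ratio -4.03 to -2.90; limma adjusted p = 0.00239). Among the 5386 genes it ranked 55th from the bottom. It was called when any one array was left out, with limma adjusted p between 0.00821 and 0.0237.

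The anther genes serve only as a scale for the size of that ratio, since their sign was fixed when the arrays were turned. Their means ran from -3.71 for SWEET8 to -0.47 for TUA1. SWEET8, a sugar transporter of the anther, was at -3.71 ± 0.47, SHT, a spermidine acyltransferase of the tapetum, at -3.66 ± 0.82, and ATA20, an anther protein, at -2.96 ± 0.74 (SD, n = 4 each). The nectary sugar transporter SWEET9 was at -4.88 ± 0.44 (SD, n = 4). The part of anther or nectary tissue in the ratio of scpl38 was not tested.

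By Euclidean distance over the 4 arrays, the genes outside the family whose values came closest to those of scpl38 were AT1G13670, AT2G03200 and PAP20, at distances of 0.62, 0.63 and 0.67 log2 units. PAP20 belongs to the purple acid phosphatases. Its mean was -3.26 ± 0.23 (SD, n = 4), and those of AT1G13670 and AT2G03200 were -3.72 ± 0.30 and -3.32 ± 0.44 (SD, n = 4 each). The measure rewards a similar size of change and says nothing more.

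Probes shared among relatives widen the picture around scpl38, although such a probe names none of its genes. The probe listing scpl37 and scpl36 read -3.44, -3.59, -3.69 and -4.35 on arrays 1 to 4. Every value was low. Arrays 1 to 3 lay within the range of the own probe of scpl38, and array 4 lay below it. Its mean of -3.77 ± 0.40 (SD, n = 4) was a 13.6-fold lower level (limma adjusted p = 0.00108 over 26156 probes). In the gene table scpl36 and scpl37 are direct neighbours (AT3G52000 and AT3G52010), followed by scpl39 (AT3G52020), whereas scpl38 lies on another chromosome. The probe for scpl40 and scpl39 was at -0.86 ± 0.44 (SD, n = 4; limma adjusted p = 0.0614). The probe that also lists AT3G56540 was at -1.01 ± 1.09 (SD, n = 4; limma adjusted p = 0.198), and neither was called.

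A probe listing scpl37, scpl36 and scpl38 together behaved differently. It read -2.49, -1.46, -0.66 and -0.40 on arrays 1 to 4, always below 0 but with a spread that the other probes of these genes lacked. The mean was -1.25 ± 0.94 (SD, n = 4), and the probe was not called (limma adjusted p = 0.109). Its 4 values all lay above those of the own probe of scpl38, so probes for this trio disagreed in size while sharing their sign. No own probe exists here for scpl36 or scpl37, so their separate contributions cannot be told apart.

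**Figure D2:**
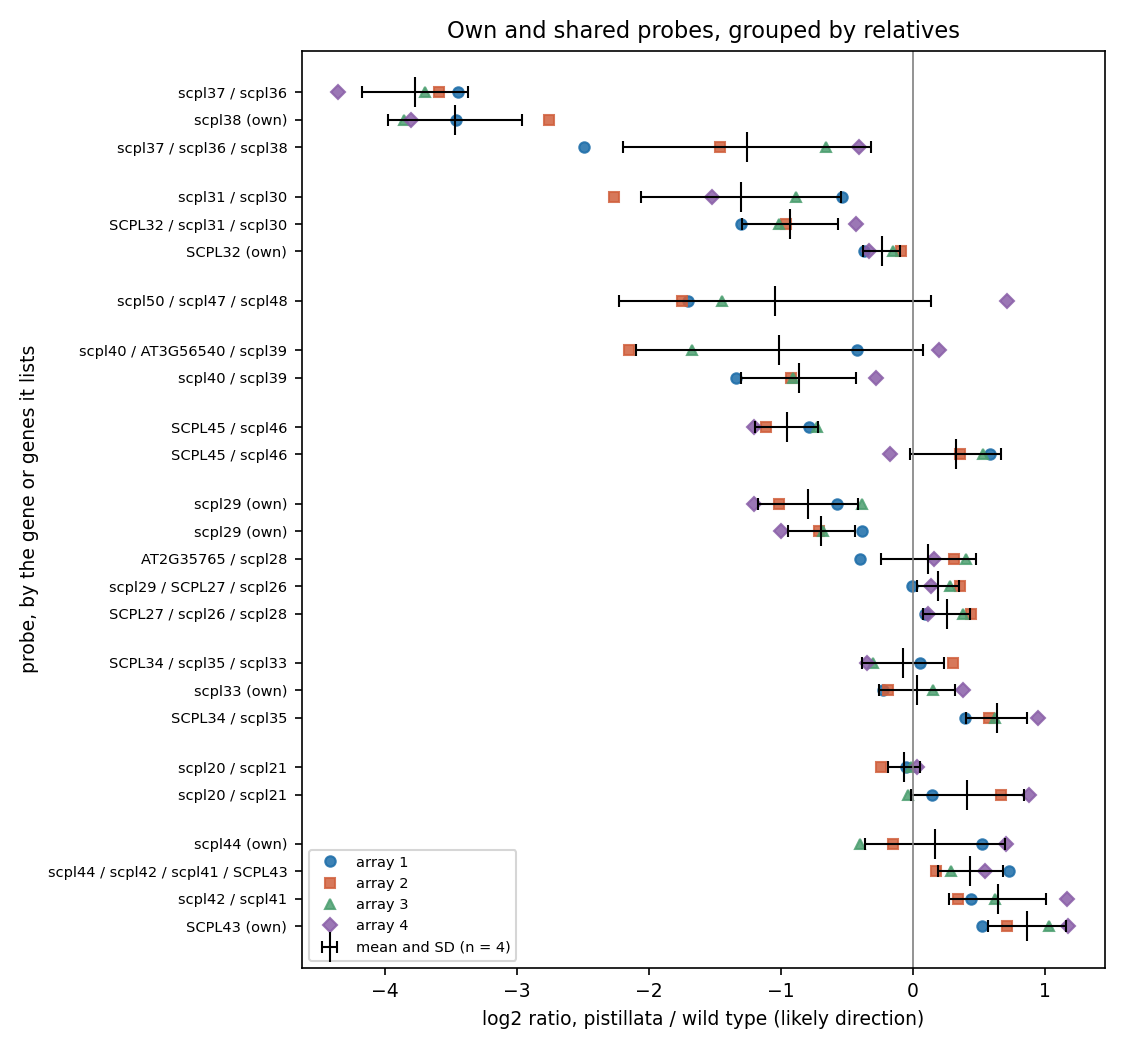
Log2 ratio of pistillata over wild type (horizontal axis, likely direction) for own and shared probes, grouped by the relatives that shared probes tie together; symbols are the 4 arrays and the bar is the mean with its SD (n = 4). The means for the trio scpl36, scpl37 and scpl38 run from -3.77 to -1.25 and include the lowest of all, and all 4 probes of scpl41, scpl42, SCPL43 and scpl44 have means above 0.

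SCPL49 (AT3G10410) is also listed as CPY, after carboxypeptidase Y, the vacuolar enzyme of baker's yeast. It read -1.49, -1.30, -0.94 and -1.44 on arrays 1 to 4. All of them were below 0, with array 3 nearest to it, and no value reached those of scpl38. The mean of -1.29 ± 0.25 (SD, n = 4; 95% interval -1.63 to -0.95) was a 2.45-fold lower level in pistillata (limma adjusted p = 0.00802). Without array 2 the adjusted p was 0.0513 by limma, and with arrays 1 and 2 and arrays 3 and 4 averaged first it was 0.0624.

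No shared probe lists SCPL49. The probe for scpl50, scpl47 and scpl48 read -1.70, -1.75, -1.44 and 0.72 on arrays 1 to 4, so 3 arrays lay in the range of SCPL49 or a little below it and array 4 lay on the other side of 0. Its mean of -1.04 ± 1.18 (SD, n = 4) was not called (limma adjusted p = 0.214). The nearest genes to SCPL49 by distance were AT5G59490, AT4G14370 and AT1G27260, with means of -1.28, -1.27 and -1.27.

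The gene scpl29 (AT4G30810) was the only member with 2 own probes. Together they averaged -0.48, -0.86, -0.53 and -1.10 on arrays 1 to 4, below 0 throughout and overlapping the range of SCPL49. The mean of -0.74 ± 0.29 (SD, n = 4) was a 1.67-fold lower level (limma adjusted p = 0.0482). Taken singly, the probes had means of -0.79 and -0.69 and all their values were below 0, with limma adjusted p of 0.0577 and 0.0432 over all probes. The call was lost without any one array, with limma adjusted p between 0.0918 and 0.178, and with a term for array orientation (0.0818). The genes nearest to scpl29 by distance were AT4G11730, AT3G61200 and AT5G53220, with means of -0.84, -0.72 and -0.63.

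Shared probes that list scpl29 or its relatives did not show the lower level of its own probes. The probe that lists scpl29 with SCPL27 and scpl26 had a mean of 0.20 ± 0.16 (SD, n = 4), with array 1 at -0.0025 and the other 3 arrays above 0. The probe for SCPL27, scpl26 and scpl28 was at 0.26 ± 0.18 (SD, n = 4), and neither was called (limma adjusted p = 0.29 and 0.204). All 4 values of both lay above all 4 values of either own probe of scpl29. The probe listing scpl28 with AT2G35765, a gene from outside the family, was at 0.12 ± 0.36 (SD, n = 4; limma adjusted p = 0.653). Its array 1, at -0.40, lay within the range of the own probes of scpl29.

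SCPL43 (AT2G12480) was the only member called higher. On arrays 1 to 4 it read 0.53, 0.71, 1.04 and 1.18, above 0 on every array. The mean of 0.86 ± 0.30 (SD, n = 4) was a 1.82-fold higher level in pistillata (95% interval 0.49 to 1.24; limma adjusted p = 0.033). Without any one array the call was lost, with limma adjusted p between 0.0604 and 0.131. When arrays were centred on their medians, the median over genes went from 0.16 to 0.05, which gave SCPL43 a log2 ratio of 0.75 and a limma adjusted p of 0.0537.

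The relatives of SCPL43 were above 0 without passing the test. The probe for scpl42 and scpl41 read 0.44, 0.34, 0.62 and 1.17 on arrays 1 to 4, all above 0, with a mean of 0.64 ± 0.37 (SD, n = 4; limma adjusted p = 0.0854). The probe listing scpl44, scpl42, scpl41 and SCPL43 was at 0.44 ± 0.25 (SD, n = 4; limma adjusted p = 0.109), also above 0 on every array. The genes nearest to SCPL43 by distance were AT3G28570, AT3G49160 and AT2G41090, with means of 0.81, 0.85 and 0.96.

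The own probe of scpl44 (AT1G43780) had the widest spread of the 10. In the likely direction its arrays 1 to 4 stood at 0.53, -0.15, -0.40 and 0.71. Arrays 1 and 4 were high and arrays 2 and 3 low, which is the split by which the signs had been turned, and as deposited all 4 values were below 0, from -0.71 to -0.15. The mean was 0.17 ± 0.53 (SD, n = 4; 95% interval -0.42 to 0.76; limma adjusted p = 0.618). A term for array orientation was fitted beside the genotype, coded 1 for arrays 1 and 4 and -1 for arrays 2 and 3. For scpl44 it was 0.45, with an unadjusted limma p of 0.0133 and an adjusted p of 0.507. The means themselves were 0.62 on arrays 1 and 4 and -0.27 on arrays 2 and 3. That was the only member with an unadjusted p under 0.05 for the term, where 8.26% of all genes had one and 0.39% passed after adjustment.

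**Figure D3:**
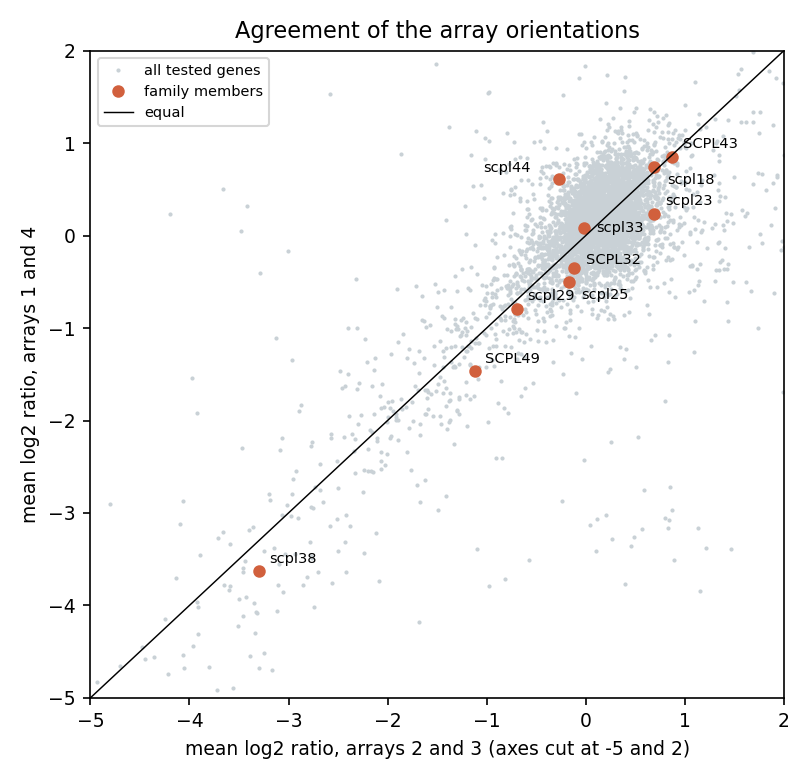
Mean log2 ratio on arrays 2 and 3 (horizontal) against that on arrays 1 and 4 (vertical), after turning, for the 10 members (large points) and all tested genes (small points, those beyond the axes not drawn); the line marks equal values. scpl44 lies farthest from the line among the members, at -0.27 and 0.62, while SCPL43 lies on it at 0.87 and 0.85.

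The gene scpl18 (AT1G33540) came close to the threshold on the higher side. Arrays 1 to 4 gave 1.11, 0.56, 0.82 and 0.38, above 0 on all arrays and overlapping SCPL43. Its mean was 0.72 ± 0.32 (SD, n = 4; 95% interval 0.32 to 1.11), with a limma adjusted p of 0.0581. It passed with adjacent arrays as a random block (0.0232), with array weights (0.0323) and without probes that hold a capped value (0.0272).

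For scpl23 (AT2G24010), the neighbour of scpl22 in the gene table, array 1 stood at -0.10 and the others at 0.89, 0.50 and 0.58. The mean of 0.47 ± 0.42 (SD, n = 4) was not called (limma adjusted p = 0.171). Array 1 alone was below 0.

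Smaller ratios were found for the rest. The gene scpl25 (AT3G02110) was below 0 on all 4 arrays, from -0.58 to -0.0079, with a mean of -0.34 ± 0.24 (SD, n = 4; limma adjusted p = 0.16). SCPL32 (AT1G61130) ranged from -0.37 to -0.09, at -0.24 ± 0.14 (SD, n = 4; limma adjusted p = 0.196). Neither was called, and their 95% intervals were -0.67 to -0.0042 and -0.50 to 0.03.

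The shared probes around SCPL32 lay further down. The probe for SCPL32, scpl31 and scpl30 read -1.30, -0.96, -1.01 and -0.43 on arrays 1 to 4 and fell to a mean of -0.93 ± 0.36 (SD, n = 4; limma adjusted p = 0.0373). Without array 1, 2 or 3 the call was lost, with limma adjusted p of 0.107, 0.149 and 0.134, and also with a term for array orientation (0.0726). All 4 of these values were below the lowest value of the own probe of SCPL32. The probe for scpl31 and scpl30 alone had a mean of -1.30 ± 0.76 and was not called (SD, n = 4; limma adjusted p = 0.0709).

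The gene scpl33 (AT3G17180) straddled 0, with -0.22 and -0.19 on arrays 1 and 2 and 0.15 and 0.38 on arrays 3 and 4. Its mean of 0.03 ± 0.29 (SD, n = 4; 95% interval -0.34 to 0.40; limma adjusted p = 0.897) gave no direction, and it turned to -0.081 after median centring. The probe for SCPL34 and scpl35, which another probe ties to scpl33, was above 0 on all arrays at 0.64 ± 0.23 (SD, n = 4) and was called higher (limma adjusted p = 0.0469). That call held in 4 of 14 settings with the same turning and was lost without any one array, with limma adjusted p between 0.0852 and 0.17. The probe listing SCPL34, scpl35 and scpl33 together was at -0.07 ± 0.31 (SD, n = 4) and was not called (limma adjusted p = 0.769). Its highest value, 0.30, lay below the lowest value of the called probe, 0.40, so these probes disagreed.

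In all, 18 shared probes list a member of the family, 16 of them with no gene from outside it. By limma 3 were lower and 1 was higher, which is 22.2% of the 18, where 10.2% of all 26156 probes were called, 7.23% lower and 2.98% higher. At an unadjusted limma p under 0.05 there were 9 of the 18, where 30.6% of all probes had one. The third lower one listed SCPL45 and scpl46, at -0.95 ± 0.24 (SD, n = 4; limma adjusted p = 0.0165), and its call was lost without any one array (0.0537 to 0.0927). A second probe listing the same pair was at 0.32 ± 0.34 (SD, n = 4; limma adjusted p = 0.249), with no overlap of the values, so these probes of one pair disagreed in sign. The 18 means ran from -3.77 to 0.64, with a median of -0.07 beside 0.14 for all probes.

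In the order of their means, scpl38 was separated from SCPL49 by 2.17 log2 units, and their values did not overlap. The ranges of the other 8 pairs of neighbours in that order overlapped. Of the 10 members, 7 had the same sign on all 4 arrays, where 43.7% of all genes did. At an unadjusted limma p under 0.05 there were 6 members, where 30.8% of all genes had one. A change of at least 2-fold in the mean was reached by 2 members, scpl38 and SCPL49.

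**Figure D4:**
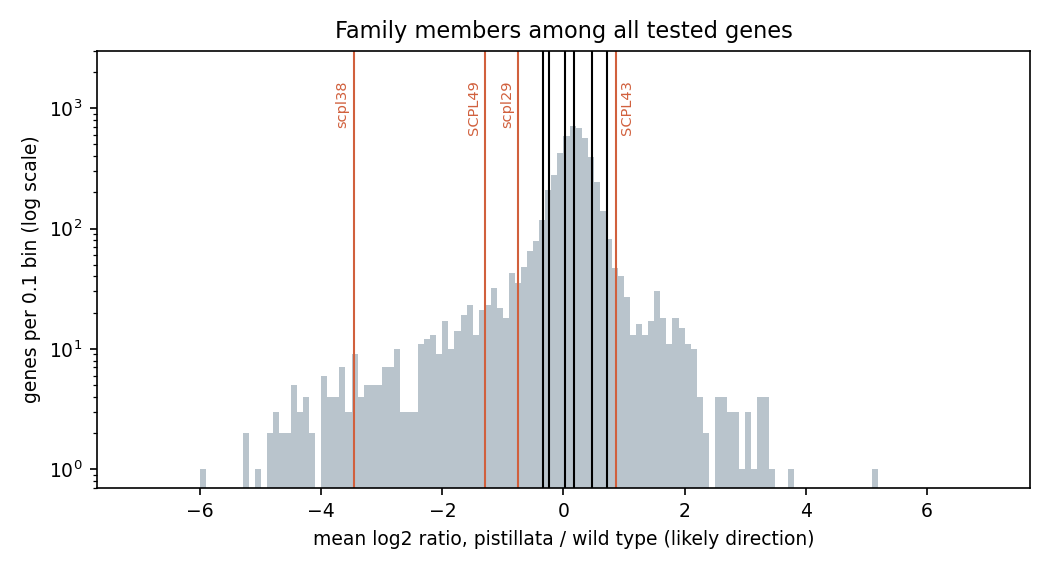
Number of genes per bin of mean log2 ratio (horizontal axis, likely direction; logarithmic vertical axis) for all 5386 tested genes, with a line at each of the 10 members; coloured lines with names are called members, black lines those not called. scpl38 at -3.46 lies in the sparse left tail, and the 6 members not called lie within the central peak or on its flanks.

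Few genes beside the members were measured. Of 40 protein-coding genes within 2 places of a member in the gene table, 6 had an own probe, and 0 of the 6 were called by limma. At an unadjusted limma p under 0.05 there were 2 of the 6, where 30.8% of all genes had one. As 8.54% of all genes were called, 0 of 6 says little about the neighbours. The lowest of them, AT3G10430, which lies 2 places from SCPL49, was at -0.98 ± 0.65 (SD, n = 4; limma adjusted p = 0.0957). None of the 4 such neighbours of scpl38 was measured.

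Other genes of the pathways in which the family is known were sparsely covered. Of 32 names in a list for phenylpropanoid and sinapate ester synthesis, 2 had an own probe. UGT84A1, one of the enzymes that join hydroxycinnamic acids to glucose, was at -1.73 ± 1.36 (SD, n = 4) and was not called (limma adjusted p = 0.115), with about -2.89 on arrays 1 and 2 and -0.29 and -0.87 on arrays 3 and 4. The other was SHT, which was called lower and had served to set the sign. Of 8 shared probes for that list 2 were lower and 0 higher by limma, where 7.23% of all probes were lower and 2.98% higher. Their median was 0.13 beside 0.14 for all probes. Of 47 names in a brassinosteroid list, 0 were on an own or a shared probe.

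Other enzyme families taken by symbol gave 1 called gene or none, where 8.54% of all genes were called, 5.79% lower and 2.75% higher. With so few genes per family, these counts cannot show a difference from those shares. Of 7 beta-glucosidase (BGLU) genes 1 was lower, BGLU36 at -4.47 ± 0.40 (SD, n = 4; limma adjusted p = 0.00115), and 0 were higher. Of 18 UGT glycosyltransferase genes 0 were lower and 1 higher, UGT73C1 at 0.94 ± 0.31 (SD, n = 4; limma adjusted p = 0.0286). Neither of the 2 subtilase (SBT) genes was called. These family medians were 0.18, 0.08 and 0.20, beside -0.10 for the serine carboxypeptidase-like genes, and no difference between families was tested.

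Markers of other organs were few. The ovule gene INO was at -0.20 ± 0.18 and SBPASE, a photosynthesis enzyme, at 0.54 ± 0.33 (SD, n = 4 each), and neither was called by limma (adjusted p = 0.288 and 0.103). Of the carpel and ovule list 1 of 7, of the leaf and photosynthesis list 1 of 10, of the nectary list 1 of 2 and of the petal and scent list 0 of 3 names had an own probe.

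**Figure D5:**
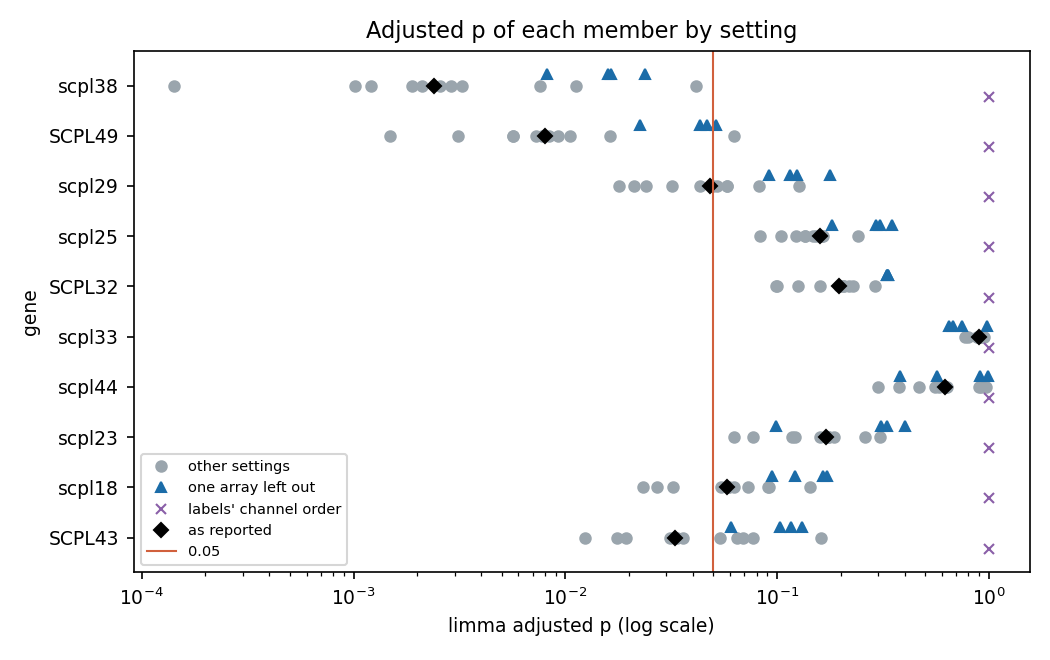
Adjusted p by limma (horizontal, logarithmic) for each of the 10 members as reported (diamonds), with one array left out (triangles), with arrays turned by the labels' channel order (crosses) and under the other settings (circles); the line marks 0.05. Every point of scpl38 except the cross lies left of the line, while those of scpl29 and SCPL43 fall on both sides.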

How the data were processed

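Per the labels, total RNA of both genotypes was hybridised to 4 two-channel oligonucleotide arrays, and the authors processed and normalized the values as in an earlier publication. The deposited values are log2 ratios; the scale was read from their limits of 6.64 on either side of 0, the log2 of 100. For background correction, dyes and numerator nothing is given in the sources used here, and the centring stays unknown: the medians over genes as deposited were -0.15, 0.15, 0.14 and -0.10. No member had a value at a limit. Depth does not apply, and 4 arrays limit the precision.

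Probes were named from the platform annotation (5784 of 26474 gene probes list 1 gene, 7497 several, 13193 none) and the gene table of assembly TAIR10.1 by gene number. Coordinates are left out because the array names no genome build. A gene's probes were averaged. Ratios were fitted in R 4.3.3 with limma 3.58.1 (lmFit with an intercept, eBayes), over genes or over probes, and checked on simulated data. A planned comparison of protein sequences was not made. Intervals are 95% and not adjusted. The term for array orientation was coded 1 for arrays 1 and 4 and -1 for arrays 2 and 3, the split given by the anther genes and not by the labels.

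The members and lists were chosen with earlier results of these data known. Named were all members, the 3 genes nearest to each called member and up to 3 genes of each list or family. The genes that set the sign and the organ markers were also listed beforehand. Shared probes and adjacent genes were singled out afterwards. Alternatives were other scaling, missing-value, variance, pairing, probe, capping, turning and threshold settings and leaving out each array.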

Additional observations from a re-analysis of the deposited data

Results flagged for a closer look

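The shared probe for scpl50, scpl47 and scpl48 had 1 array apart from the others. Array 4 stood at 0.72 and the other 3 between -1.75 and -1.44, and the gap was 0.877 of the whole range, above Dixon's 95% critical value for 4 values. It was the only such set among 30 examined, which were the 10 genes, the 2 own probes of scpl29 and the 18 shared probes, and chance gives about 1 in 20.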

How the results depend on the processing

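As reported, 4 members were called. By limma the count was 2 with a term for array orientation, 2 with trended and robust moderation, and 2 at an adjusted p of 0.01. It was 1 with adjacent arrays averaged first, and between 1 and 2 with one array left out. It rose to 5 with adjacent arrays as a random block, with array weights and without capped probes. With the labelled channel order setting the signs, limma called 0 members and 0 genes, with 0 members and 18 genes at an unadjusted p under 0.05. That order reverses arrays 1 and 2 relative to the turning used here, so ratios alike on all arrays average near 0. Of all genes, 460 were called; the count was 144 with adjacent arrays averaged, 1047 with them as a random block, 760 with array weights, 726 without capped probes, 164 at an adjusted p of 0.01, between 180 and 235 with one array left out, and 2669 probes when each was tested. Lower genes made up 67.8% of the calls, against 82.3% with centred arrays, 79.5% when also scaled, 42.6% with the random block, 52.0% with array weights, 57.2% without capped probes, 85.4% with adjacent arrays averaged, 88.4% at an adjusted p of 0.01 and between 81.7% and 90.4% with one array left out. Trended and robust moderation called 311 genes lower and 0 higher by limma (1278 higher at an unadjusted p under 0.05), and SCPL43 had an adjusted p of 0.0765 there. The cause of these shifts was not tested.

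With arrays turned as reported, scpl38 kept its call in 16 of 16 settings, SCPL49 in 14, and scpl29 and SCPL43 in 6 each. Of the called shared probes, that of scpl37 and scpl36 kept its call in 14 of 14, that of SCPL45 and scpl46 in 8, that of SCPL32, scpl31 and scpl30 in 8, and that of SCPL34 and scpl35 in 4. Signs changed by the labels' channel order for SCPL49 (0.10), scpl25 (0.12), scpl18 (-0.11), scpl44 (-0.016) and the probe shared by SCPL32, scpl31 and scpl30 (0.20). The sign of scpl33 changed with centring (-0.081), centring and scaling (-0.072) and array weights (-0.012), and its values ran from -0.086 to 0.12 with one array left out. That of scpl44 changed with array weights (-0.031) and ran from -0.0071 to 0.36 with one array left out. Each ratio already pairs the genotypes within an array. Without signals, a level above background is unknown.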
